A study of Mus musculus with 9 samples.

Results

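Collagens are the main structural proteins of the extracellular matrix, and each molecule is a helix wound from collagen chains that a separate gene each encodes. The chains described here are every gene of the deposited tables whose symbol has the form Col, a type number, the letter a and a chain number. This gave 44 chains of 24393 counted genes, of which 11 belong to fibrillar types, 8 to basement membrane types (IV, XV and XVIII) and 25 to other types. Of the 44 chains, 34 passed the filter on low counts and were tested with 12501 genes in all. The other 10 were Col2a1 (fibrillar), Col4a3 and Col4a4 (basement membrane), and Col6a4, Col9a1, Col9a3, Col10a1, Col20a1, Col23a1 and Col26a1 (other types).

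RNA came from pancreatic islets of female mice, whose age the labels do not state. The 4 knockout (KO) libraries came from mice of the genotype Rip-cre; Ogt f/f, in which Cre recombinase expressed from an insulin promoter deletes floxed Ogt, the enzyme that adds O-GlcNAc to proteins. Cells of the islet that do not use that promoter keep the floxed gene. The 5 wild-type (WT) libraries carried no Cre transgene, and those of run 1 comprised 2 of the genotype Ogt f/+ (replicates 1 and 3) and 1 of the genotype Ogt f/f (replicate 2), while both WT libraries of run 3 (replicates 4 and 5) were Ogt f/f. No library of Rip-cre alone was among the samples used here, so the transgene and the deletion cannot be told apart. Run 1 held KO replicates 1 and 2, and run 3 held KO replicates 3 and 4. Islets were freed with collagenase, picked by hand and kept overnight in medium with serum before freezing, and total RNA was sequenced. The labels list each library as a sample of its own and do not say whether animals were pooled, so every p-value reflects how these libraries vary, which may be partly technical.

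Without gene symbols that had turned into dates, a run 1 library held 3790984 to 4456205 counts and a run 3 library 5141031 to 6064578. Ogt stood between 54.1 and 83.0 CPM (counts scaled to a common library size) in the WT libraries and between 23.7 and 39.3 CPM in the KO libraries, with no overlap. The 10 beta cell markers summed to between 42845 and 110232 CPM in every library, the highest in WT replicate 3. In the test over both runs described below, 5 of the 10 were called lower in KO, against 8.96% of all tested genes.

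Fibrillar collagens (types I, II, III, V, XI, XXIV and XXVII) assemble into the fibrils of connective tissue. Type IV collagen forms the sheet-like network of basement membranes, with types XV and XVIII at their surface. Among the other types, type VI forms beaded filaments next to basement membranes, type VIII forms networks of short chains, and the fibril-associated types sit on the surface of fibrils. In the islet, endothelial cells lie on a basement membrane rich in type IV collagen, and pericytes, stellate cells and fibroblasts are known sources of fibrillar and type VI chains. In bulk RNA, more cells of a type and more RNA per cell cannot be told apart.

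A shared feature of all 44 chains is the Gly-X-Y triplet, which can be read in the coding sequence as a glycine codon (GGN, where N is any base) at the first place of each triplet of codons. In the coding sequences of the annotated transcripts (GENCODE release M21, build GRCm38, the transcript with the longest coding sequence for each gene), the longest unbroken run of such triplets was between 216 and 344 triplets (median 338) in the 11 fibrillar chains. It was between 30 and 66 (median 41) in the 8 basement membrane chains and between 23 and 113 (median 52) in the 25 other chains. Windows of 27 codons, 81 bases each, show how this differs between a fibrillar chain, a short-chain network chain and a type IV chain. Capitals mark every glycine codon in the reading frame, and the window of Col4a1 starts inside its longest run and crosses its end, where the spacing of the capitals breaks.
Col5a2 codons 211 to 237: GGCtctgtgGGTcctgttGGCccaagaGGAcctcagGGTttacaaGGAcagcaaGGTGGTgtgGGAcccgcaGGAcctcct
Col8a2 codons 312 to 338: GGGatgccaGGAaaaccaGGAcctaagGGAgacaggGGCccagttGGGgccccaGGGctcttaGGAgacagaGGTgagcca
Col4a1 codons 148 to 174: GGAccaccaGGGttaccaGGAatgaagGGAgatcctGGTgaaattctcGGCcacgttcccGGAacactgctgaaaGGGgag
The Col5a2 and Col8a2 windows are the first 27 codons of runs of 339 and 60 triplets. Breaks like the one in Col4a1 divide its coding sequence into 22 stretches of at least 5 triplets, against 2 stretches in Col5a2 and 9 in Col8a2.

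Over both runs 10 of the 34 tested chains rose in KO islets and 0 fell. A chain was called when edgeR's quasi-likelihood test on counts, with sequencing run as a covariate, gave a Benjamini-Hochberg adjusted p under 0.05 over all 12501 genes. The same call was made as higher for 9.56% of all tested genes and as lower for 8.96%. The chains that rose were Col5a1 and Col5a2 of the fibrillar class, Col15a1 and Col18a1 of the basement membrane class, and Col6a1, Col6a2, Col6a3, Col6a6, Col8a1 and Col8a2 of the other types. The log2 fold change of KO over WT was above 0 for 30 of 34 chains with a median of 0.51, against 52% and a median of 0.02 over all tested genes. At an unadjusted p under 0.05 the same test gave 16 of 34 chains higher and 2 lower (Col7a1 and Col14a1), against 16.6% and 15.6% of all genes. DESeq2 called 11 chains higher and 1 lower, and limma-voom 12 and 0. Over all 12501 genes DESeq2 gave 1108 higher and 1136 lower, and limma-voom 1256 and 1175. Without the run term 1 chain, Col8a2, was called, and the count over all genes fell from 1195 to 380 higher.

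**Figure D1:**
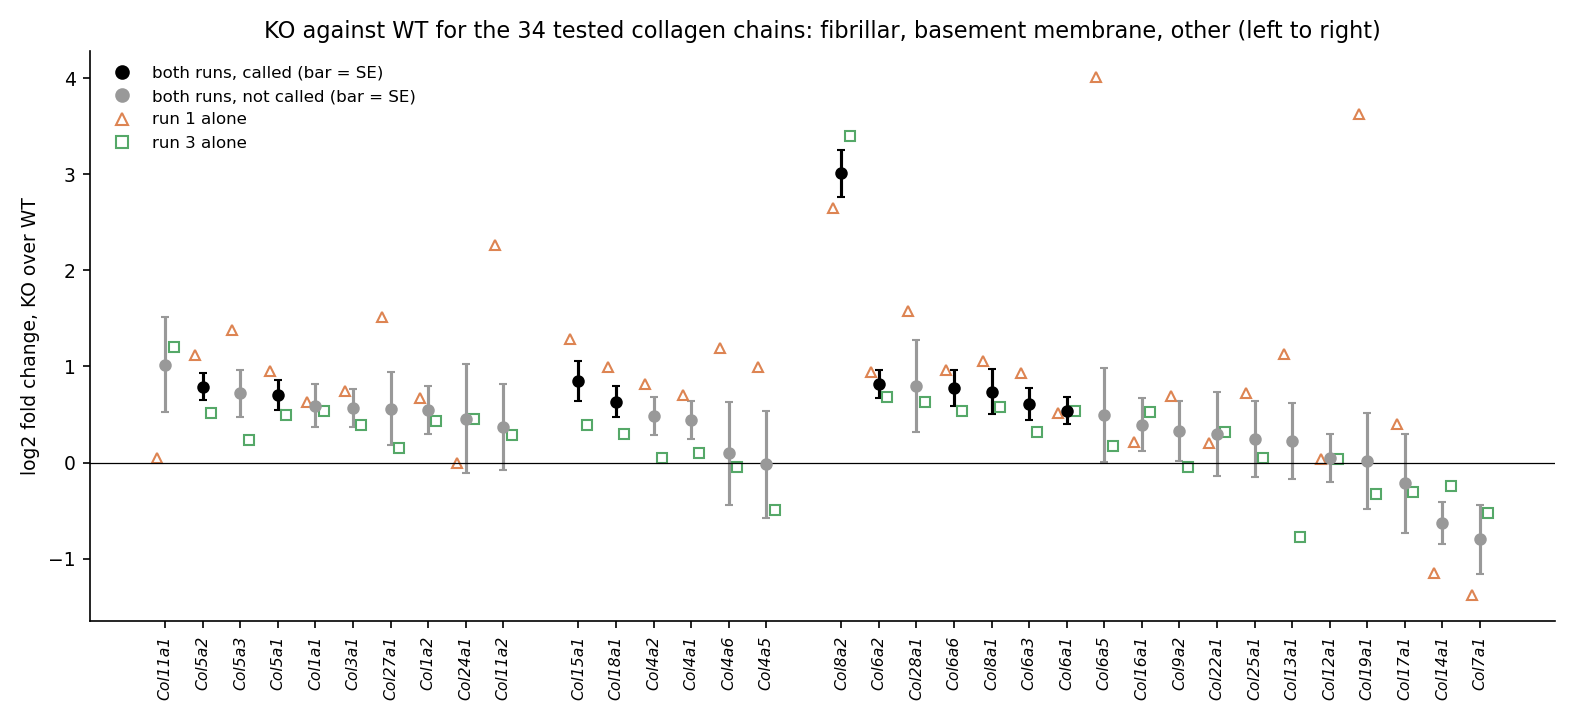
Log2 fold change of KO over WT (y axis) for each of the 34 tested chains (x axis), fibrillar at left, basement membrane in the middle, other types at right. Circles are both runs with the SE as bars, black where called, and open triangles and squares are run 1 and run 3 alone; 30 circles lie above 0, and Col8a2 stands apart at 3.01.

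Col8a2, a chain of the type VIII network, is the one with the highest log2 fold change of the 34. Its level was 3.18, 1.94 and 3.23 CPM in WT replicates 1 to 3, against 19.9 and 16.3 CPM in KO replicates 1 and 2. In run 3 it was 2.11 and 1.52 CPM in WT replicates 4 and 5, against 17.6 and 21.6 CPM in KO replicates 3 and 4. All KO libraries thus lay above all WT libraries in both runs, with no overlap even across runs. The mean was 2.40 ± 0.768 CPM in WT (SD, n = 5) and 18.8 ± 2.34 CPM in KO (SD, n = 4). In the fit this was 8.05-fold, or 3.01 ± 0.24 on the log2 scale (SE, adjusted p = 1.55e-06). WT values rest on 6 to 14 counts per library and KO values on 67 to 147. The log2 fold change was 2.64 ± 0.31 in run 1 (adjusted p = 0.00225) and 3.40 ± 0.35 in run 3 (adjusted p = 1.6e-05), and with each library left out in turn it stayed between 2.84 and 3.13. On the FPKM scale, which divides by length, Col8a2 was 0.351 to 0.702 in WT and 3.52 to 5.40 in KO.

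Col8a1 encodes the partner chain of type VIII collagen. It stood at 2.69, 1.30 and 3.73 CPM in WT and 5.29 and 5.84 CPM in KO of run 1, and at 12.8 and 19.9 CPM in WT and 24.4 CPM in both KO libraries of run 3. KO libraries lay above WT libraries within each run, but WT libraries of run 3 lay above KO libraries of run 1. KO over WT gave a log2 fold change of 0.74 ± 0.23 (SE, adjusted p = 0.0362). This is the weakest of the 10 calls: it was lost in 13 of 23 alternative settings, among them leaving out any 1 of WT replicates 1, 2 and 4 or of KO replicates 1 to 4, with log2 fold changes of 0.44 to 0.98 over all settings. In KO libraries the FPKM of the 2 chains was 3.52 to 5.40 for Col8a2 and 0.954 to 4.91 for Col8a1.

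Col8a2 lies on chromosome 4 (GRCm38, 126286793 to 126314330, plus strand) and Col8a1 on chromosome 16 (57624258 to 57754737, minus strand), so they are not neighbours. The 250 bases before the Col8a2 start (chr4:126286544-126286793, plus strand, RefSeq on GRCm38.p6) are shown because this gene moved most. Capitals mark the GC box, searched as GGGCGG on both strands.
Col8a2 upstream: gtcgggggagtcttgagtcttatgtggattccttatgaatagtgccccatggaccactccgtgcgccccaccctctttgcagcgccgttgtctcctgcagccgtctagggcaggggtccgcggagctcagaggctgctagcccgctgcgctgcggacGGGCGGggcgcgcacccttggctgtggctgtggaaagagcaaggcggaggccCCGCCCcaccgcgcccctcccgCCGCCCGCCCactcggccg
The window holds 4 matches, 1 of GGGCGG and 3 of its reverse complement, of which 2 overlap. Windows of 300 bases around the start (250 before to 50 after) were at hand for 35 of the 44 chains, and 22 of them held a GC box, against 35.7% of all 32851 such windows. Among the 9 called chains with a window, 6 held one (Col5a1, Col6a2, Col6a6, Col8a1, Col8a2 and Col18a1). The TATA box, searched as TATAAA, was in 5 of 35 chains and in 0 of the 9 called ones, against 13.6% of all windows. The CCAAT box, searched as CCAAT, was in 13 of 35 and in 1 of the 9, against 37.4%. These are letter matches in the reference and say nothing of which factors bind. A chain was counted if any of its windows held the box, while the percentages are of single windows. Col6a2, Col9a1 and Col18a1 had more windows than the other chains.

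**Figure D2:**
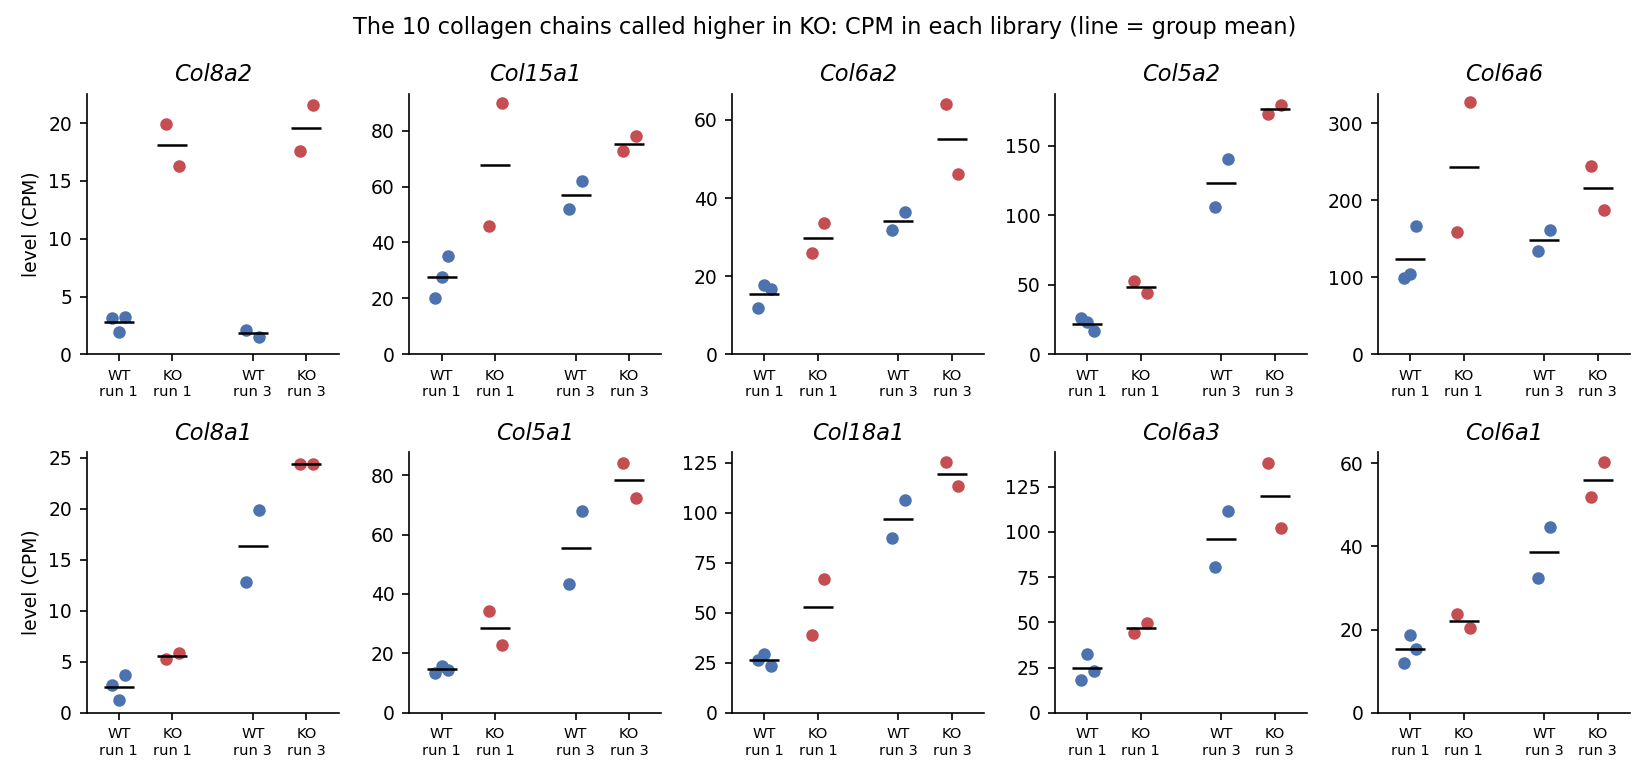
CPM (y axis, from 0) of the 10 called chains in each library, by genotype and run (x axis); blue points are WT libraries, red points KO libraries, and lines are group means. For Col8a2 all 4 KO libraries lie at 16.3 CPM or above and all 5 WT libraries at 3.23 CPM or below in both runs, while the chains other than Col8a2 and Col6a6 are higher in run 3 on average.

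Type VI collagen is built mainly from the chains of Col6a1 and Col6a2, joined by another type VI chain such as that of Col6a3, Col6a5 or Col6a6. Of 5 type VI chains tested, 4 rose and Col6a5 was not called (log2 fold change 0.49, adjusted p = 0.529). Col6a2 was 11.7, 17.8 and 16.7 CPM in WT and 26.0 and 33.6 CPM in KO of run 1, and 31.8 and 36.5 CPM in WT and 64.1 and 46.2 CPM in KO of run 3. No KO library overlapped a WT library of its run. Its log2 fold change was 0.82 ± 0.15 (SE, adjusted p = 0.0014), with 0.94 in run 1 and 0.68 in run 3, both called.

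Col6a1 showed the same order with smaller gaps. It was 11.97, 18.8 and 15.4 CPM in WT and 23.7 and 20.4 CPM in KO of run 1, and 32.5 and 44.8 CPM in WT and 51.8 and 60.3 CPM in KO of run 3, a log2 fold change of 0.54 ± 0.14 (SE, adjusted p = 0.0148). The groups did not overlap within a run, but the call was lost without WT replicate 4 or without KO replicate 4. Col6a3 stood at 18.1, 32.7 and 23.1 CPM in WT and 44.3 and 49.7 CPM in KO of run 1, and at 80.7 and 112 CPM in WT and 138 and 102 CPM in KO of run 3. In run 3 KO replicate 4 lay below WT replicate 5, so the groups overlapped there. Its log2 fold change was 0.61 ± 0.17 (SE, adjusted p = 0.0183), and leaving out any 1 of KO replicates 1, 2 and 3 or WT replicate 4 ended the call.

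Col6a6 was the type VI chain with the highest FPKM, at 22.8 on average over the 9 libraries, against 7.75 for Col6a2, 6.84 for Col6a1 and 6.45 for Col6a3. Its FPKM was 11.8, 11.8 and 20.7 in WT and 19.4 and 38.1 in KO of run 1, and 18.3 and 24.2 in WT and 32.8 and 27.6 in KO of run 3. KO replicate 1 lay just below WT replicate 3, and in run 3 both KO libraries lay above both WT libraries. On the CPM scale the 3 WT libraries of run 1 had 98.4, 104 and 166 and the 2 KO libraries 158 and 327, and in run 3 WT had 135 and 162 and KO 244 and 187. Over both runs the log2 fold change was 0.78 ± 0.19 (SE, adjusted p = 0.0097). It fell to 0.46 without KO replicate 2, the library with 327 CPM, and the call held there. Unlike the other type VI chains, Col6a6 was not called between the runs (run 3 minus run 1, log2 0.06, adjusted p = 0.838). Col6a1 and Col6a2 lie on chromosome 10 with 85161 bases between them and Col18a1 326009 bases from Col6a1, and Col6a6 lies on chromosome 9 next to Col6a5, 27917 bases away. Of the 18 tested chains of other types 6 rose, against 3 of 12 tested when WT replicate 4 was left out (Col6a1, Col6a3 and Col8a1 lost their call). Over all genes 1195 of 12501 were called higher, and 967 of 12052 without WT replicate 4.

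Of the fibrillar chains, both tested α1 and α2 chains of type V rose, a minor component that is built into type I fibrils and limits their diameter. Col5a2 was 26.1, 23.3 and 16.9 CPM in WT and 52.9 and 44.1 CPM in KO of run 1, and 106 and 140.4 CPM in WT and 173 and 179.6 CPM in KO of run 3. Each KO library exceeded each WT library of its run. The log2 fold change was 0.79 ± 0.14 (SE, adjusted p = 0.00116), 1.12 in run 1 (adjusted p = 0.01) and 0.51 in run 3 (adjusted p = 0.0123). Col5a1 was 13.4, 15.9 and 14.4 CPM in WT and 34.3 and 22.9 CPM in KO of run 1, and 43.2 and 67.9 CPM in WT and 84.2 and 72.3 CPM in KO of run 3. It too showed no overlap within a run, with a log2 fold change of 0.70 ± 0.16 (SE, adjusted p = 0.00655). Col5a3, the α3 chain of type V, had a log2 fold change of 0.72 and an adjusted p of 0.0522, and was not called.

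The chains of the most abundant fibrillar collagens, types I and III, were not called over both runs by edgeR. By limma-voom on the same libraries Col1a1 and Col3a1 were called (adjusted p = 0.0463 and 0.0466) and Col1a2 was not (adjusted p = 0.0998). DESeq2 called none of them (adjusted p = 0.292, 0.203 and 0.391 for Col1a1, Col3a1 and Col1a2). Col1a1, the α1 chain of type I, had FPKM values of 12.8, 17.6 and 5.41 in WT and 23.7 and 11.9 in KO of run 1, and of 32.1 and 38.9 in WT and 53.7 and 51.3 in KO of run 3. In run 1 KO replicate 2 fell among the WT libraries, and in run 3 both KO libraries lay above both WT libraries. The log2 fold change over both runs was 0.59 ± 0.23 (SE, adjusted p = 0.0839), and within run 3 it was 0.53 ± 0.11 and called (adjusted p = 0.00531).

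Col3a1, the chain of type III, had 5.81, 6.93 and 2.92 FPKM in WT and 10.9 and 6.52 FPKM in KO of run 1, and 24.7 and 39.7 FPKM in WT and 46.7 and 41.4 FPKM in KO of run 3 (log2 fold change 0.56 ± 0.20 SE, adjusted p = 0.059). Col1a2, the α2 chain of type I, had 4.53, 6.70 and 2.31 FPKM in WT and 10.2 and 3.74 FPKM in KO of run 1, and 16.5 and 28.7 FPKM in WT and 31.7 and 27.98 FPKM in KO of run 3 (log2 fold change 0.55 ± 0.25 SE, adjusted p = 0.141). For these 3 chains WT replicate 3 was the lowest library of run 1, and KO replicate 2 lay below KO replicate 1. The fibrillar count depended on single libraries: 2 of 10 tested chains rose in all, 5 without KO replicate 2, 4 without WT replicate 2 and 3 without KO replicate 3. Leaving out WT replicate 5 gave 4 of 7 tested chains. Over all genes 1195 of 12501 were called higher with every library kept. The count was 909 of 13141 without KO replicate 2 and 987 of 12570 without WT replicate 2. It was 891 of 12588 without KO replicate 3 and 973 of 12065 without WT replicate 5. Without KO replicate 2 all 3 type I and III chains were called, at log2 fold changes of 0.75 (Col1a1), 0.64 (Col3a1) and 0.72 (Col1a2). Without KO replicate 1 the log2 fold changes fell to 0.36, 0.38 and 0.25. All 10 tested fibrillar chains had a log2 fold change above 0, from 0.37 (Col11a2) to 1.02 (Col11a1, which had 0 to 3 counts per library in run 1). Col3a1 and Col5a2 are neighbours on chromosome 1, 24614 bases apart.

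In the basement membrane class the chains of types XV and XVIII rose and those of type IV did not pass the test. Col15a1 encodes a proteoglycan collagen that links basement membranes to the fibrils beneath. Its level was 20.03, 27.5 and 35.3 CPM in WT and 45.9 and 89.8 CPM in KO of run 1, and 52.1 and 62.2 CPM in WT and 72.6 and 78.2 CPM in KO of run 3. Col18a1, from whose end endostatin is cut, was 26.1, 29.5 and 23.6 CPM in WT and 38.8 and 66.9 CPM in KO of run 1, and 87.2 and 106 CPM in WT and 125 and 114 CPM in KO of run 3. Neither chain overlapped between genotypes within a run, and KO replicate 2 was the highest library of run 1 for both. The log2 fold change was 0.85 ± 0.20 (SE, adjusted p = 0.00897) for Col15a1 and 0.63 ± 0.16 (SE, adjusted p = 0.0114) for Col18a1. Without KO replicate 2 they were 0.52 and 0.39 and both were still called. Within run 1 both were called (1.28 and 0.99) and within run 3 neither (0.40, adjusted p = 0.0728, and 0.30, adjusted p = 0.134).

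Col4a1 and Col4a2, which encode the chains of the ubiquitous type IV network, had the highest mean FPKM of the class. Col4a1 had the highest of all 44 chains over the 9 libraries, but in run 3 Col1a1 lay above it in both genotypes (35.5 against 33.5 FPKM in WT and 52.5 against 35.7 FPKM in KO). Col4a1 had 23.8, 30.5 and 40.4 FPKM in WT and 31.9 and 71.1 FPKM in KO of run 1, and 31.5 and 35.4 FPKM in WT and 39.2 and 32.1 FPKM in KO of run 3. Col4a2 had 22.3, 19.6 and 31.5 FPKM in WT and 27.9 and 58.7 FPKM in KO of run 1, and 22.4 and 20.3 FPKM in WT and 25.9 and 18.9 FPKM in KO of run 3. KO replicate 2 stood above every other library for both genes, while the other 3 KO libraries lay between 31.9 and 39.2 FPKM for Col4a1, inside the range of the WT libraries. The log2 fold changes were 0.44 ± 0.20 (SE, adjusted p = 0.129) and 0.48 ± 0.20 (SE, adjusted p = 0.11), and without KO replicate 2 they were 0.07 and 0.11. Leaving out KO replicate 1 brought Col4a1 past the threshold at 0.59, and leaving out KO replicate 4 brought Col4a2 past it at 0.63. The less abundant Col4a5 and Col4a6 had log2 fold changes of -0.02 and 0.10 (adjusted p = 0.985 and 0.92).

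Col4a1 and Col4a2 lie head to head on chromosome 8 and are read in opposite directions from starts that overlap. In RefSeq on GRCm38.p6 the minus-strand start of Col4a1 is at 11312826 and the plus-strand start of Col4a2 at 11312805. The 22 bases from one start to the other, both included, are shown because both transcripts begin in them (chr8:11312805-11312826, plus strand).
Col4a1 and Col4a2 starts: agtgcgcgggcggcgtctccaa
Both 300-base windows held a GC box and a CCAAT box. The labels do not say whether strand was used in counting, and the overlap is too short to bear on most reads.

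KO replicate 2 and WT replicate 3 were also the libraries of run 1 with the most endothelial RNA by marker level. The 12 endothelial markers summed to 303, 304 and 526 CPM in WT and 350.0 and 659 CPM in KO of run 1, and to 231 and 214 CPM in WT and 186 and 177 CPM in KO of run 3. None of the 12 was called (median log2 fold change 0.11), Pecam1, the best placed by p, having 0.49 and an adjusted p of 0.331. In run 3 the endothelial sums were lower in both KO libraries than in both WT libraries. Col15a1 and Col18a1 were higher in KO there, though neither was called in the edgeR fit of run 3 (adjusted p = 0.0728 and 0.134). The part of endothelial RNA in the collagen calls was not tested. Leaving out both KO replicate 2 and WT replicate 3, a choice made after these values were seen, gave 12 of 38 tested chains higher, against 1037 of 13285 genes. Among the 12 were Col15a1 (0.58) and Col18a1 (0.35), while Col4a1 stood at 0.16 and Col4a2 at 0.20. The type I and III chains, not called with every library kept, were also among them, at 0.60 (Col1a1), 0.52 (Col3a1) and 0.58 (Col1a2). Col6a3 lost its call (0.47).

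The summed level of fibroblast, stellate cell and pericyte markers was higher in KO libraries, although 9 of the 12 tested were not called. The 15 markers summed to 63.99, 88.4 and 72.1 CPM in WT and 116 and 132 CPM in KO of run 1, and to 158 and 171 CPM in WT and 226 and 195 CPM in KO of run 3, so KO libraries lay above WT libraries in each run. Against 9.56% of all genes called higher, 3 of the 12 rose: Cygb, the stellate cell globin (log2 fold change 1.09), Cspg4, the pericyte proteoglycan NG2 (0.66), and Pdgfrb, the platelet-derived growth factor receptor of mural cells (0.54). The median over the 12 was 0.41. No marker of the list was at 0 in all libraries, and Lum, a fibroblast proteoglycan, was at 0 in WT replicate 3 and KO replicate 2. The share of this shift in the collagen calls was not tested. The acinar markers, from the exocrine tissue around islets, summed to 2314, 5666 and 4473 CPM in WT and 2001 and 423 CPM in KO of run 1. In run 3 they summed to 142 and 144 CPM in WT and 101 and 229 CPM in KO. Of 11 acinar markers tested 2, the enzymes Cpb1 and Cel, were called lower, against 8.96% of all genes (log2 fold changes -1.47 and -1.44). Within runs the log2 fold changes of Cpb1 and Cel were -1.97 and -2.04 in run 1, and -0.05 and 0.16 in run 3. The part of the acinar list in the collagen calls was not tested either. Of the Schwann cell markers 1 of 7 rose, of the immune markers 1 of 10 (Lyz2, a lysozyme, 0.78), and of the duct and mesothelial markers 0 of 6, with the same 9.56% over all genes. The best placed of that last list by p was Krt7, a keratin of duct cells (log2 fold change -0.23, adjusted p = 0.0581).

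Fibril-associated and transmembrane collagens did not pass the test. Of the fibril-associated types 0 of 6 tested chains were called, with log2 fold changes from -0.62 (Col14a1) to 0.40 (Col16a1), and of the transmembrane types 0 of 3, from -0.22 (Col17a1) to 0.24 (Col25a1). Over all genes 9.56% were called higher and 8.96% lower, so 0 calls among so few chains do not set these types apart. Col14a1, which binds fibrils through decorin, was the nearest to a fall. It had 13.2, 18.5 and 10.4 CPM in WT and 5.54 and 7.06 CPM in KO of run 1, and 18.4 and 20.1 CPM in WT and 14.8 and 17.8 CPM in KO of run 3. All KO libraries lay below all WT libraries of their run (log2 fold change -0.62 ± 0.22 SE, adjusted p = 0.0577). It passed the threshold without WT replicate 3 (-0.66) or without KO replicate 4 (-0.79), and with DESeq2 (-0.66). Col7a1, the anchoring fibril of skin, had the lowest log2 fold change (-0.80 ± 0.36 SE, adjusted p = 0.139) from 4 to 61 counts per library, and was called without WT replicate 4 (-1.16).

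Within run 1 alone (3 WT, 2 KO) 7 chains rose and 0 fell, and within run 3 alone (2 WT, 2 KO) 5 rose and 0 fell. Over all genes the shares called higher and lower were 3.13% and 2.92% in run 1 and 3.93% and 4.24% in run 3. At an unadjusted p under 0.05 the fits gave 15 chains higher and 2 lower in run 1, against 11.4% and 11.6% of all genes, and 13 and 0 in run 3, against 11.1% and 11.4%. DESeq2 called 8 chains in run 1 and 5 in run 3. The chains called in run 1 were Col5a1, Col5a2, Col6a2, Col6a3, Col8a2, Col15a1 and Col18a1, and those of run 3 were Col1a1, Col5a2, Col6a2, Col6a6 and Col8a2. Col5a2, Col6a2 and Col8a2 were called in each. The count of run 1 moved with single libraries, to 2 without WT replicate 1 and to 3 without WT replicate 2. No counts over all genes were kept for these fits or for DESeq2 within runs. Whether such shifts are particular to the chains was not tested. The median log2 fold change of the 34 chains was 0.94 in run 1 and 0.31 in run 3, against 0.01 and -0.01 over all genes. In run 1, 4 of the 34 chains had 0 counts in every WT or every KO library. With 2 of those at the bound that a floor of 3 counts over the group gives, and the other 2 left out as under the floor, the run 1 median was 0.85.

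The difference between runs in the KO effect was tested as an interaction. It was called for 0 of the 34 chains by edgeR's quasi-likelihood test and 0 by DESeq2, against 0% of all genes, and the lowest adjusted p among the chains was 0.795. At an unadjusted p under 0.05 the same edgeR test gave 8 of the 34 chains, 1 with a positive interaction and 7 with a negative one. The shares over all genes were 2.51% positive and 3.44% negative. Col5a2, Col5a3, Col15a1 and Col18a1 had a smaller positive log2 fold change in run 3 than in run 1, and Col14a1 a negative one nearer to 0. Col13a1 changed sign, from 1.13 in run 1 to -0.78 in run 3. The remaining pair, Col6a5 and Col19a1, had 0 counts in every WT library of run 1 and 1 or 2 counts in each KO library there, so their run 1 values rest on almost no reads. The 2 control genotypes were compared in the same way. Between f/+ and f/f controls 0 chains were called, against 0% of all genes. At an unadjusted p under 0.05 in that fit, 3 of 34 chains (Col1a1, Col5a3 and Col6a3) were lower in f/+ and 0 higher. The shares over all genes were 1.81% lower and 1.38% higher. The log2 difference of f/+ minus f/f was below 0 for 24 of 34 chains and above 0 for 10 (median -0.33), against 47.5% above 0 and a median of -0.01 over all genes. Both f/+ libraries were in run 1, so this rests on 1 f/f library of that run and on the run term. With f/f controls alone 6 of 38 tested chains rose, against 750 of 13307 genes. Col6a1, Col6a3, Col8a1 and Col18a1 were no longer called.

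All 4 KO libraries lay above the WT libraries of their run for 8 chains (Col5a1, Col5a2, Col6a1, Col6a2, Col8a1, Col8a2, Col15a1 and Col18a1), which was so for 11.9% of all tested genes, and below them for Col14a1 alone, which was so for 11% of all genes. The 10 called chains, chosen by the fit on these same libraries, were also put through an exact two-sided permutation test of log2 CPM with labels permuted within runs, so its values are a description and no independent support. The test allows 60 arrangements and a smallest p of 0.0167. It gave that smallest p for Col5a1, Col5a2, Col6a2, Col8a2, Col15a1 and Col18a1. By the same exact test p was 0.0333 for Col6a1 and Col8a1, 0.05 for Col6a6 and 0.0667 for Col6a3, unadjusted for the 10 chains tested.

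More chains were called between the runs than between the genotypes, a comparison made after the values were seen. In run 3 against run 1, 28 of 34 chains were higher, 1 was lower (Col4a2, log2 difference -0.57, adjusted p = 0.0444) and 5 were not called. The filter on low counts did not use run, so chains with almost no run 1 counts, such as Col24a1 and Col11a2, passed it through run 3. For such chains a higher level in run 3 was fixed in advance. With WT replicate 4 or WT replicate 5 left out, 23 chains passed the filter. Over all genes 15.1% were called higher and 16.3% lower. The median log2 difference was 1.90 over the chains and 0.01 over all genes. It reached 2.40 over the 10 fibrillar chains, all of them called higher, against 1.07 over the 6 basement membrane and 1.73 over the 18 other chains. These medians and calls rest partly on chains that passed the filter through run 3. With WT replicate 4 or WT replicate 5 left out, 7 fibrillar, 4 basement membrane and 12 other chains passed it. Col3a1 differed 5.77-fold and Col5a2 4.52-fold, while Col4a1 (log2 difference -0.25), Col6a6 (0.06), Col8a2 (-0.12), Col9a2 (0.27) and Col13a1 (-0.08) were not called. Col24a1, Col2a1, Col9a1 and Col9a3 had 0 counts in all 5 libraries of run 1 and counts in all 4 of run 3. The labels give the run as a pool of libraries, and sequencing, islet batch and mice of the runs cannot be told apart. Markers of fibroblasts, stellate cells and pericytes had a median log2 difference of 1.26, endothelial markers of -0.87, acinar markers of -4.00 and Schwann cell markers of 2.13 between the runs.

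**Figure D3:**
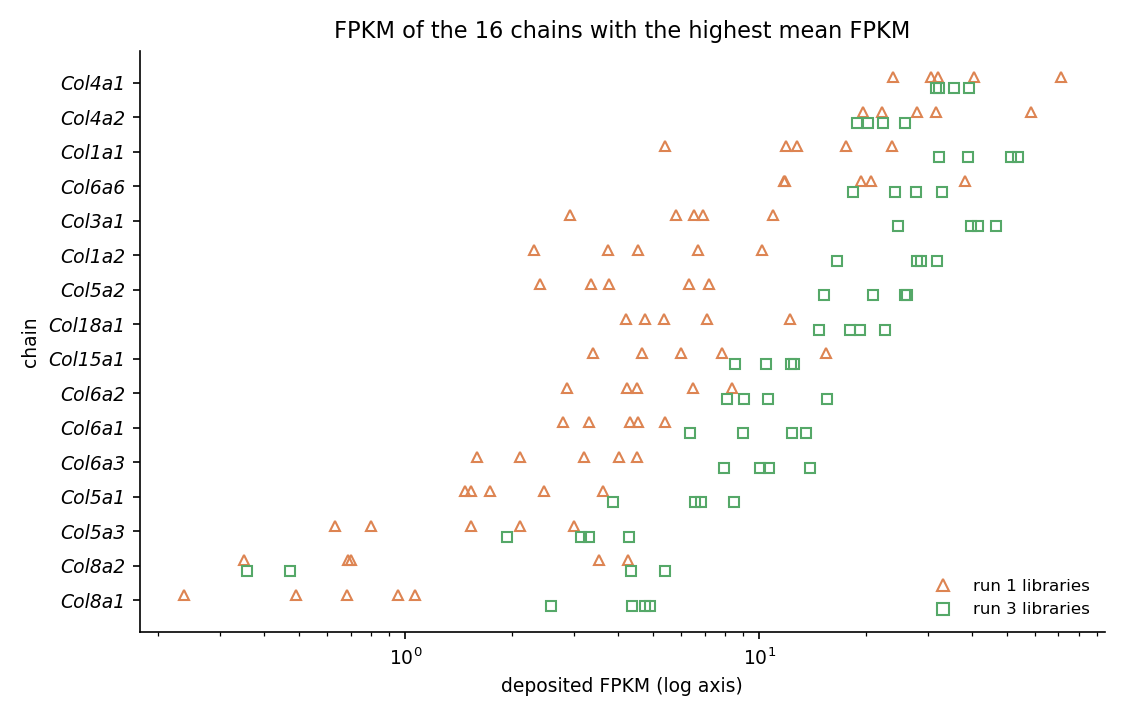
Deposited FPKM (x axis, log scale) of the 16 chains with the highest mean FPKM (y axis), 1 point per library; triangles are run 1 and squares run 3. Col4a1 and Col4a2 overlap between the runs, while Col1a1, Col3a1, Col1a2 and Col5a2 are higher in run 3 in every library.

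The order of chains by FPKM therefore changed with the run. In WT libraries of run 1 the order was Col4a1 (31.6 ± 8.35 FPKM, SD, n = 3), Col4a2 (24.5 ± 6.23), Col6a6 (14.8 ± 5.17) and Col1a1 (11.9 ± 6.15). The ranges of neighbours in that order overlapped. In WT libraries of run 3 it was Col1a1 (35.5 ± 4.79 FPKM, SD, n = 2), Col4a1 (33.5 ± 2.75), Col3a1 (32.2 ± 10.6) and Col1a2 (22.6 ± 8.60), and the ranges of neighbours overlapped there too. In KO libraries Col4a1 led in run 1 (51.5 ± 27.7 FPKM, SD, n = 2) and Col1a1 in run 3 (52.5 ± 1.68 FPKM, SD, n = 2).

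Summed over the 44 chains, collagen RNA was 736 to 939 CPM in WT and 1203 to 1801 CPM in KO of run 1, and 1554 to 1950 CPM in WT and 2131 to 2409 CPM in KO of run 3. Both KO sums lay above all WT sums of their run. Fibrillar chains made up 10.4% to 30.3% of the collagen CPM in run 1 and 40.0% to 47.3% in run 3, and Col4a1 with Col4a2 35.7% to 54.8% in run 1 and 17.0% to 24.5% in run 3. In run 1 the basement membrane sum was 374 to 577 CPM in WT and 516 and 1099 CPM in KO, and in run 3 it was 530 and 565 CPM in WT and 661 and 568 CPM in KO. KO replicate 1 lay below WT replicate 3 in that sum. The fibrillar sum was 97.2 to 221 CPM in WT and 364 and 209 CPM in KO of run 1, which overlap, and 621 and 885 CPM in WT and 1075 and 1009 CPM in KO of run 3, which do not.

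**Figure D4:**
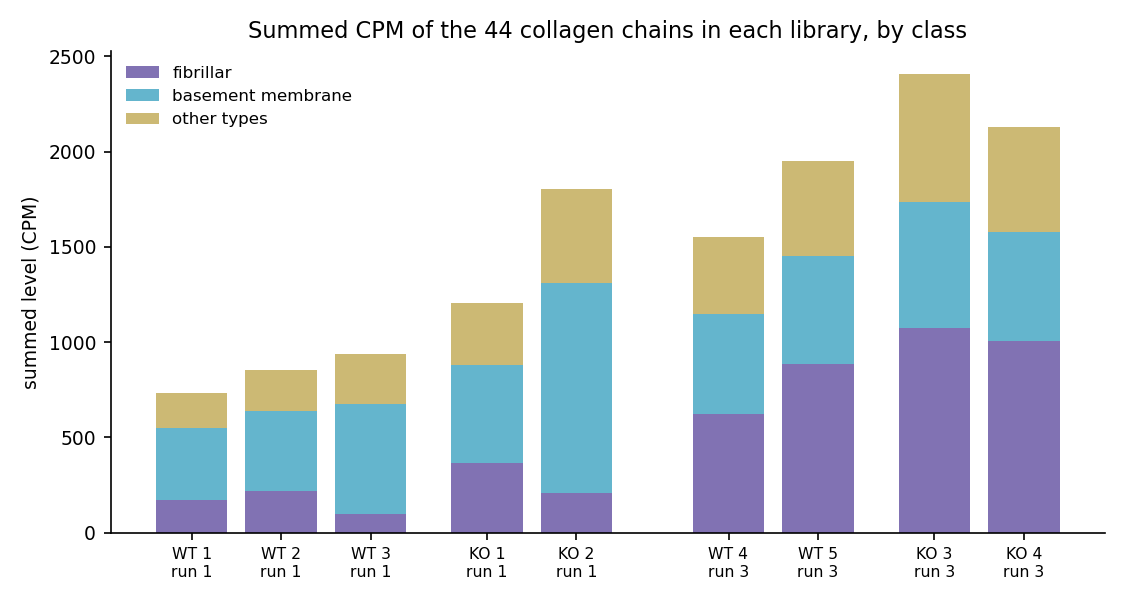
Summed CPM (y axis, from 0) of the 44 chains in each library (x axis), stacked by class. KO libraries reach higher totals than WT libraries of the same run, run 3 libraries have a larger fibrillar part, and KO replicate 2 has the largest basement membrane part at 1099 CPM.

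Genes that make, cut, bind and sense collagen did not move as a block. Of 20 tested genes for hydroxylation, glycosylation and folding of procollagen, 2 rose and 4 fell (median log2 fold change -0.00099). The shares over all genes, 9.56% higher and 8.96% lower, apply to this list and to those that follow. Serpinh1, the collagen chaperone HSP47, rose by 0.49 ± 0.12 (SE, adjusted p = 0.00800). P4hb, the disulfide isomerase subunit of prolyl 4-hydroxylase that beta cells also use to fold insulin, had a log2 fold change of -0.44 (adjusted p = 0.00126), Creb3l1, a transcription factor of the secretory pathway, of -0.55 (adjusted p = 0.0016), and Colgalt1, the collagen galactosyltransferase, of -0.53 (adjusted p = 0.00848). In Serpinh1 each KO library lay above each WT library of its run, at 65.0 and 59.2 CPM against 32.0 to 38.3 CPM in run 1 and at 94.4 and 92.7 CPM against 79.7 and 84.3 CPM in run 3.

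For export, propeptide cleavage and cross-linking 1 of 15 rose and 2 fell. Bmp1, the protease that removes the carboxyl propeptide of fibrillar procollagens, rose by 0.53. Mia2 and Ctage5, names for overlapping products of a locus for procollagen export whose reads the counting could split, had log2 fold changes of -0.91 and -0.34. Among collagen-degrading proteases and inhibitors 1 of 10 rose, Mmp14, the membrane-bound collagenase (0.59), and among collagen receptors 1 of 10, Cd44, a receptor for hyaluronan that also binds collagen. Cd44 was 71.8, 69.6 and 96.0 CPM in WT and 265 and 328 CPM in KO of run 1, and 78.0 and 77.9 CPM in WT and 289.6 and 293 CPM in KO of run 3, with no overlap in either run (log2 fold change 1.90). Of the other basement membrane proteins 1 of 14 rose, Nid1, which joins laminin to type IV collagen (0.54). Of the fibril-associated proteins 3 of 10 rose: Bgn, a small proteoglycan (0.54), Postn, a matricellular protein (0.41), and Fn1, fibronectin (0.36). No member of the receptor, protease, basement membrane or fibril-associated lists fell.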

How the data were processed

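RNA-seq libraries of mouse islets, 5 WT and 4 KO, were analysed, in 2 sequencing runs per the labels. The authors deposited a table of raw read counts per gene symbol and a table of FPKM values, with 1 column per library. FastQC, Bowtie2 2.2.4.0, Cuffdiff 2.2.1, edgeR and the build mm10 are named without roles per the submitters' processing notes, and a stranded total RNA kit was used per the labels' protocols. The counter, its use of strand and the scaling of the FPKM values are not given in the sources used here. Symbols turned into dates (27) were left out.

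Counts were tested with edgeR 4.0.16 (R 4.3.3; quasi-likelihood, TMM, default filter by group, model of run and genotype), adjusted over all tested genes by Benjamini-Hochberg. Adjusted p-values are from this fit unless another is named, and SEs are the log2 fold change over the root of F. Within-run, interaction, control genotype and run fits used the same genes. CPM values use TMM-scaled library sizes. The fit was tested on simulated data. Alternatives were DESeq2 1.42.0, limma 3.58.1 (voom on counts; trend on log2(FPKM + 0.1) or log2(FPKM + 1), with or without a filter of FPKM 0.5 in 4 libraries), RLE scaling, other filters, f/f controls alone, no Rn45s and leaving out libraries. Chains with few reads are measured with less precision.

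The chains and lists were chosen with earlier results of these data known. Named were every called chain, the 3 chains per class with the highest mean FPKM, the highest and lowest log2 fold change of the rest, and the best called members of each list by p (at most 4, or 2 uncalled ones where no call was made). Some genes that this rule takes are not reported here. Others were named after their values were seen (Col5a3, Col6a5, Col14a1, Col4a5, Col4a6, the chains not tested and those in the run and unadjusted counts). Coordinates are GENCODE M21 and RefSeq on GRCm38, the assembly of mm10, and all 44 symbols matched.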

Additional observations from a re-analysis of the deposited data

Results flagged for a closer look

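Col4a2 in WT replicate 3 stood apart from the other WT libraries. Its gap to the nearest of them on the log2 CPM scale was 0.716 of the whole range, at 221 CPM against 137 to 157 CPM in the other 4. Chance flags about 1 in 20 such groups, and 30 groups were examined. The same library had the highest endothelial marker sum of the WT libraries (526 CPM), and the part of that in the Col4a2 value was not tested. Without WT replicate 3 its log2 fold change was 0.55, short of the threshold.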

How the results depend on the processing

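The count of chains called higher (10) went to 1 without the run term and to 16 without a filter on low counts (44 chains tested). It was 6 with f/f controls alone (38 tested), 6 with log2(FPKM + 0.1) filtered (22 tested) and 3 unfiltered (43 tested). With each library left out it lay between 7 and 12, with 23 chains tested without WT replicate 4 or 5 and 34 to 38 otherwise. Over all genes the count called higher (1195) was 380, 1233, 750, 816 and 619 in those settings in that order. It lay between 820 and 1180 with each library left out. The count called lower (0) went to 1 (Col14a1) with DESeq2 and without a filter, and lay between 0 and 1 with each library left out. Within run 1 the count of 7 lay between 2 and 10 with each WT library left out, with no count over all genes kept. Within-run fits that leave 1 library in a group are not counted here. In interaction fits that leave 1 library of a genotype in a run, it is assumed to vary like the others. Of 345 refits of 15 single chains, 278 kept direction and side of the threshold, 43 lost the call, 24 gained it and 0 reversed. Col8a2 kept its call in 23 of 23 settings, and Col5a2 and Col6a2 lost it only without the run term. Scaling by RLE or leaving out Rn45s left the count at 10. The interaction and the control comparison stayed at 0 in the settings run (RLE for both, and for the interaction DESeq2 and each library left out). No paired analysis was possible because the replicate numbers follow accession order and do not pair libraries. Leaving out KO replicate 2 with WT replicate 3 was chosen after seeing the data. Between 19 and 22 chains reached 10 counts in a library of run 1, and between 39 and 44 in run 3.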

Other observations

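For 8 of the 44 chains, at least 1 run 3 library had 5 or more counts while the deposited FPKM was listed at 0. Col2a1 was listed at 0 FPKM in all 4 run 3 libraries, with 11, 5, 27 and 21 counts in WT replicates 4 and 5 and KO replicates 3 and 4. Col9a3 was so in 3 of 4, Col9a1 and Col17a1 in 2, and Col4a6, Col7a1, Col22a1 and Col26a1 in 1. In run 1 no chain had 5 or more counts with an FPKM of 0. At least 1 count was found for 28 to 37 of the 44 chains per library in run 1 and for 44 of 44 in each library of run 3.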
